A study of Mus musculus with 9 samples.

Results

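The antioxidant and glutathione enzymes described here are 10 genes chosen by name: Sod1, Sod2, Cat, Gpx1, Gpx3, Gclc, Gclm, Nqo1, Hmox1 and Txnrd1. They were found by their gene symbol among 22061 genes measured in the right ventricle of the mouse heart, each by 1 probe set. The 9 samples were male mice, with 3 arrays in each of 3 groups. The first group was labelled Lrat-/- and fed a vitamin A deficient diet. The second was labelled Lrat-/- and fed a vitamin A sufficient diet, which was the deficient diet with 250000 U/kg of retinol palmitate added. The third was wild type on the sufficient diet, and every group ate its diet for 50 days. No group of wild-type mice on the deficient diet was analysed here, so the diet was compared only within arrays labelled Lrat-/-. The right ventricle was cut from the left along the septum, and RNA of the whole tissue was hybridised, so a lower signal can come from fewer cells of a type or from less RNA per cell, which cannot be told apart. Whether each sample came from its own animal is not in the labels, so p-values here describe how these samples vary, and some of that variation may be technical.

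Superoxide dismutases turn superoxide into hydrogen peroxide, which catalase and the glutathione peroxidases then break down. Glutathione peroxidases spend glutathione, whose synthesis starts with glutamate-cysteine ligase, and thioredoxin reductase serves a parallel system that also draws on NADPH. Heart muscle is rich in mitochondria, a main source of superoxide, and the transcription factor NRF2 is known to raise Gclc, Gclm, Nqo1, Hmox1 and Txnrd1 when its inhibitor KEAP1 is modified by oxidants. Lrat encodes the enzyme that esterifies retinol for storage, and retinoic acid made from retinol acts through nuclear receptors.

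None of the 10 genes was called in any comparison. The largest differences were a lower Gpx3 signal in deficient arrays labelled Lrat-/- and a lower Hmox1 signal in all arrays labelled Lrat-/-, and neither passed the adjustment over all genes. Values are log2 signals after the authors' RMA normalization, and a call means an adjusted p under 0.05 in limma, over all 22061 genes. The genotype comparison was sufficient arrays labelled Lrat-/- minus wild type, the diet comparison was deficient minus sufficient arrays labelled Lrat-/-, and the combined comparison was deficient arrays labelled Lrat-/- minus wild type. The 3 comparisons share arrays, so they are not independent of each other.

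In the genotype comparison limma called 0 of 10 members, against 0.0363% of all genes, and 1 had an unadjusted p under 0.05, against 5.72% of all genes. In the diet comparison it called 0 of 10, against 0% of all genes, and 1 had an unadjusted p under 0.05, against 1.31%. In the combined comparison it called 0 of 10, against 0.068%, and 2 had an unadjusted p under 0.05, against 6.09%. The moderated F test, which asks whether any group differs, called 0 of 10, against 0.0408%, and 2 had an unadjusted p under 0.05, against 4.4%. The median log2 difference of the members was -0.09 in the genotype, 0.00 in the diet and -0.15 in the combined comparison, beside 0.00, -0.01 and -0.01 over all genes. The groups did not overlap for 2 of 10 members in the genotype comparison, against 7.7% of all genes, for 2 of 10 in the diet comparison, against 5.22%, and for 2 of 10 in the combined comparison, against 8.15%. Both of those in the combined comparison lay lower, against 4.88% of all genes, and 0 lay higher, against 3.28% of all genes. By direction, 7 of 10 members lay lower in the genotype comparison, 5 of 10 in the diet comparison and 8 of 10 in the combined comparison, beside 49.0%, 54.8% and 54.3% of all genes. Without wild-type array 2, the highest array for 7 of the members, 5 of 10 lay lower in each of the 3 comparisons.

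**Figure D1:**
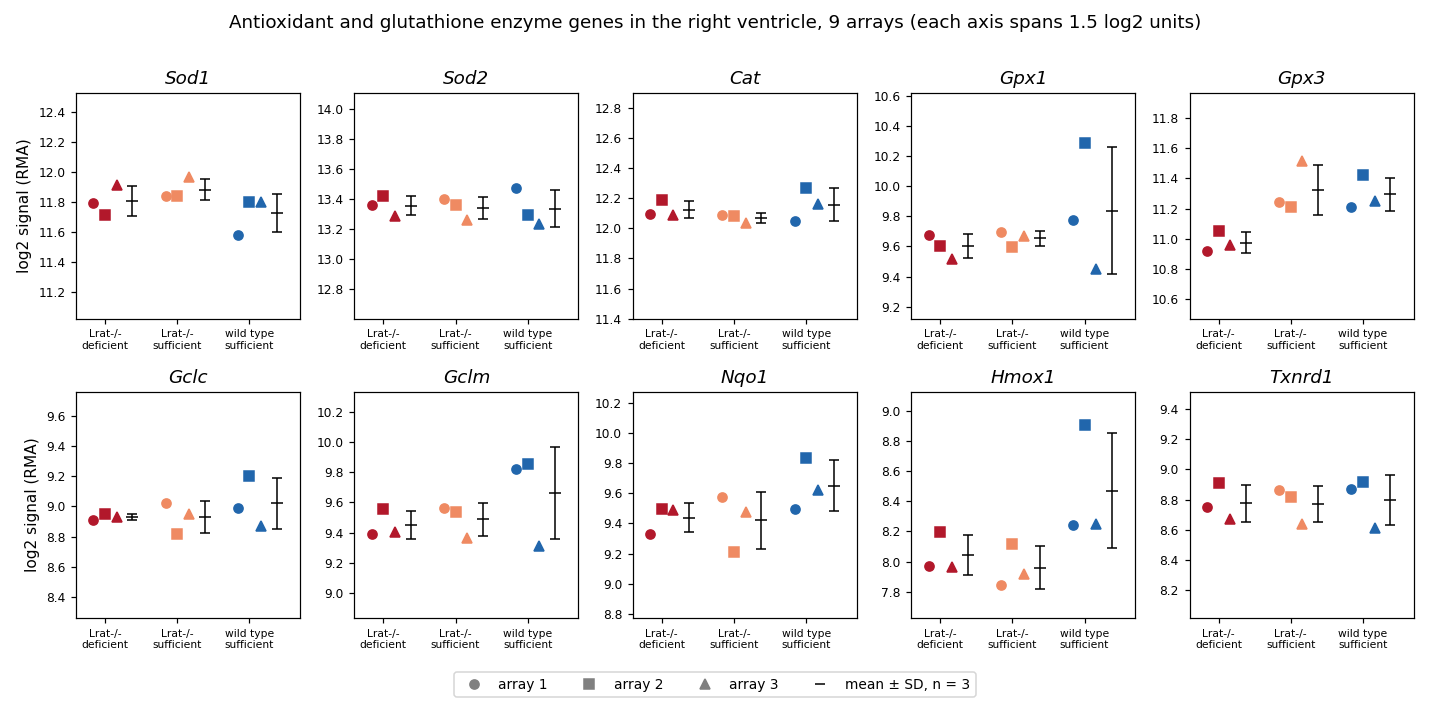
Log2 signal of each of the 10 genes in each of the 9 arrays, with the arrays of the 3 groups side by side; points are arrays, and black marks with error bars are the group mean and SD. The 3 deficient arrays labelled Lrat-/- lie below the other 6 for Gpx3, and wild-type array 2 stands above the other arrays for Gpx1 and Hmox1.

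The label check comes before the directions. The Lrat log2 signal was 7.58, 7.69 and 7.81 in deficient arrays labelled Lrat-/-, 7.88, 7.64 and 8.09 in sufficient arrays labelled Lrat-/-, and 6.35, 6.24 and 6.43 in wild-type arrays. It was thus higher in every array labelled Lrat-/-, and no source used here places its probe set inside or outside the deleted part, so each direction below rests on the labels. Correlations between arrays ran between 0.987 and 0.998, and a principal component holding 28.4% of the variance separated the arrays numbered 3 in every group. Wild-type array 2 was the highest of the 9 arrays for 7 of 10 members, and its background controls averaged 5.37, against 5.60 to 5.71 in the other 8 arrays. The part of that background level in the members' values was not tested. All 10 ventricular cardiomyocyte markers were above background, for markers the mean of the background controls, in all 9 arrays. Of 8 atrial markers, 3 (Sln, Bmp10 and Clec4a4) were not above it in all arrays, while the rest were.

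The superoxide dismutases differed by little between the groups. Sod1, the copper and zinc enzyme of the cytosol, had log2 signals of 11.79, 11.72 and 11.91 in deficient arrays labelled Lrat-/-, 11.84, 11.84 and 11.96 in sufficient arrays labelled Lrat-/-, and 11.58, 11.80 and 11.80 in wild-type arrays. The sufficient arrays labelled Lrat-/- all lay above the wild type, with means of 11.88 ± 0.07 and 11.73 ± 0.13 (SD, n = 3 each). The genotype difference was 0.15 (SE 0.09, 95% interval -0.05 to 0.35, limma adjusted p = 0.922). The share of all genes whose arrays all lay above the wild type was 3.67%, and Sod1 was the 1 member of 10 to do so. In the diet comparison its difference was -0.08 and in the combined comparison 0.08, with overlapping groups. Without wild-type array 1, the lowest of the 9, the genotype difference was 0.08 and the combined difference 0.01.

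Sod2, the manganese enzyme of the mitochondrial matrix, had log2 signals of 13.36, 13.42 and 13.29 in deficient arrays labelled Lrat-/-, 13.40, 13.36 and 13.26 in sufficient arrays labelled Lrat-/-, and 13.47, 13.30 and 13.24 in wild-type arrays. The groups overlapped throughout. The genotype difference was 0.00 (95% interval -0.18 to 0.19) and the diet difference 0.02 (95% interval -0.17 to 0.20). These intervals bound how large a difference these arrays could have missed; they do not show that the groups are alike.

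Of the enzymes that remove hydrogen peroxide, Gpx3 differed most. Gpx3, the glutathione peroxidase that is secreted and found in plasma, is a selenoprotein. Its log2 signals were 10.92, 11.05 and 10.96 in deficient arrays labelled Lrat-/-, 11.24, 11.21 and 11.52 in sufficient arrays labelled Lrat-/-, and 11.21, 11.42 and 11.25 in wild-type arrays. All 3 deficient arrays lay below all 6 others, with means of 10.97 ± 0.07 on the deficient diet, 11.32 ± 0.17 on the sufficient diet and 11.29 ± 0.11 in wild type (SD, n = 3 each). The share of all genes below without overlap was 3.26% in the diet comparison and 4.88% in the combined comparison. The diet difference was -0.35 (SE 0.10, 95% interval -0.57 to -0.13), a ratio of 0.785, and it was not called (limma adjusted p = 1). The combined difference was -0.32 (95% interval -0.54 to -0.10, limma adjusted p = 0.570), while the genotype difference was 0.03.

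The diet difference of Gpx3 was -0.24 among arrays with the numbers 1 and 2 and -0.56 between the pair with the number 3. As its groups did not overlap, the direction had to be the same in both. Leaving out 1 array at a time gave -0.41 to -0.25. In the authors' deposited table the ratio of Gpx3 was 0.798 for the diet and 0.812 for the combined comparison. That table gives 1 false discovery rate per gene, not 1 per comparison. For Gpx3 it was 0.744, the lowest among the 10 genes. Beside it, smooth muscle markers averaged 8.94 in each of the deficient arrays, 9.11 to 9.38 in sufficient arrays labelled Lrat-/- and 8.75 to 9.06 in wild-type arrays. Of these 5 markers, 4 lay lower in the diet comparison and 3 in the combined comparison. Mesothelial markers averaged 6.84 to 7.22, 7.27 to 7.32 and 7.40 to 8.14 in the same order of groups, with 7 of 7 lower in both comparisons. Endothelial markers lay higher for 6 of 8 in the diet comparison, while 4 of 8 neutrophil markers were not above background in all arrays. None of these markers was called, and their part in the Gpx3 difference was not tested. The mesothelial averages lay below the 95th percentile of the background controls in every array.

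The promoter window of Gpx3, which RefSeq (GRCm38.p6) places at chr11:54902604-54902903 on the plus strand, is shown because Gpx3 had the largest diet difference of the 10 genes. It runs 5′ to 3′ from 250 bases before the start to 50 after it.
Gpx3: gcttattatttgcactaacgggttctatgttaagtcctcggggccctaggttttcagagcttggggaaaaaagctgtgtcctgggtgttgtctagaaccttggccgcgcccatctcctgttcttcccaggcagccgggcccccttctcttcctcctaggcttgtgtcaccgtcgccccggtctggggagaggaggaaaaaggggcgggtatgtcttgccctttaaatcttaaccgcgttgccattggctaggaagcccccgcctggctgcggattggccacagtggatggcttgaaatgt
Each promoter window was searched on both strands for 3 motifs: TGACNNNGC, the core of the antioxidant response element that NRF2 binds, AGGTCA, the single site from which retinoic acid response elements are built, and the direct repeat of AGGTCA spaced by 5 bases. None of them lies in this Gpx3 window, which says only that these letters are not there.

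Cat, the peroxisomal enzyme catalase, had log2 signals of 12.09, 12.19 and 12.09 in deficient arrays labelled Lrat-/-, 12.09, 12.09 and 12.03 in sufficient arrays labelled Lrat-/-, and 12.05, 12.27 and 12.16 in wild-type arrays. The deficient arrays lay above the sufficient ones without overlap, but the nearest arrays of the groups are equal at the 2 decimals printed. In the diet comparison 1.96% of all genes lay above without overlap. The diet difference was 0.06 (95% interval -0.11 to 0.22) and the genotype difference -0.09 (95% interval -0.26 to 0.08). Leaving out 1 array at a time gave -0.14 (without wild-type array 1) to -0.04 (without wild-type array 2) for the genotype. Its promoter window was the 1 member window with AGGTCA, 204 bases before the start, a match found in 16.3% of all windows.

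Gpx1, the cytosolic glutathione peroxidase, had log2 signals of 9.68, 9.60 and 9.52 in deficient arrays labelled Lrat-/-, 9.69, 9.60 and 9.67 in sufficient arrays labelled Lrat-/-, and 9.77, 10.29 and 9.45 in wild-type arrays. Wild-type array 2 stood far above the other 8 arrays, and the groups overlapped. The genotype difference was -0.18 (95% interval -0.57 to 0.21) over all arrays and 0.04 without wild-type array 2, so its direction rests on that array. The combined difference was -0.24 (95% interval -0.63 to 0.15) over all arrays and -0.01 without wild-type array 2. The diet difference was -0.05 (95% interval -0.44 to 0.34).

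**Figure D2:**
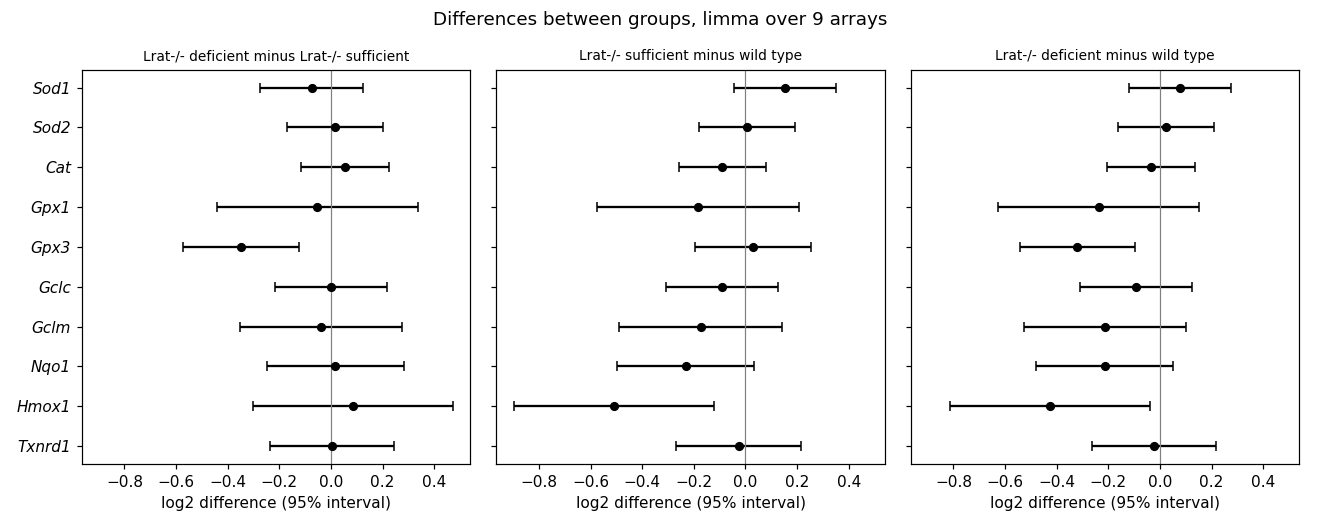
Log2 difference of each of the 10 genes in the genotype, diet and combined comparisons, with 95% intervals from limma. The intervals of Gpx3 in the diet and combined comparisons and of Hmox1 in the genotype and combined comparisons lie below 0, and no difference passed the adjusted threshold.

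The subunits of glutamate-cysteine ligase, the enzyme that limits the rate of glutathione synthesis, were not called in any comparison. Gclc, the catalytic subunit, had log2 signals of 8.91, 8.95 and 8.93 in deficient arrays labelled Lrat-/-, 9.02, 8.81 and 8.95 in sufficient arrays labelled Lrat-/-, and 8.99, 9.21 and 8.87 in wild-type arrays. Its groups overlapped, with a genotype difference of -0.09 and a diet difference of 0.00. Leaving out 1 array at a time gave -0.17 (without wild-type array 3) to 0.00 (without wild-type array 2) for the genotype.

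Gclm, the modifier subunit, had log2 signals of 9.39, 9.56 and 9.40 in deficient arrays labelled Lrat-/-, 9.57, 9.54 and 9.36 in sufficient arrays labelled Lrat-/-, and 9.82, 9.85 and 9.31 in wild-type arrays. Wild-type arrays 1 and 2 were the highest of the 9 and wild-type array 3 the lowest. The genotype difference was -0.17 (95% interval -0.49 to 0.14) over all arrays, -0.35 without wild-type array 3 (limma adjusted p = 0.362) and -0.08 without wild-type array 2. The combined difference was -0.21 over all arrays, -0.39 without wild-type array 3 (limma adjusted p = 0.249) and -0.12 without wild-type array 2. The diet difference was -0.04.

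Of the remaining genes in the NRF2 pathway, Hmox1 differed most. Hmox1 encodes heme oxygenase 1, which breaks down heme and is induced by many stresses. Its log2 signals were 7.97, 8.19 and 7.96 in deficient arrays labelled Lrat-/-, 7.84, 8.12 and 7.92 in sufficient arrays labelled Lrat-/-, and 8.25, 8.91 and 8.25 in wild-type arrays. All 6 arrays labelled Lrat-/- lay below all 3 wild-type arrays, with means of 8.04 ± 0.13 on the deficient diet, 7.96 ± 0.14 on the sufficient diet and 8.47 ± 0.38 in wild type (SD, n = 3 each). The share of all genes below without overlap was 4.03% in the genotype comparison.

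The genotype difference of Hmox1 was -0.51 (SE 0.17, 95% interval -0.90 to -0.12), and it was not called (limma adjusted p = 0.705). The combined difference was -0.43 (95% interval -0.81 to -0.04, limma adjusted p = 0.774) and the diet difference 0.08. Without wild-type array 2 the genotype difference was -0.29 (limma adjusted p = 0.742) and the combined difference -0.21. When array numbers entered limma as a replicate block, its genotype adjusted p was 0.212. The Hmox1 signal was above the 95th percentile of the background controls in 1 of 9 arrays, which was wild-type array 2, at 8.91 against a percentile of 8.09. The other 9 members were above it in 9 of 9 arrays. Hmox1 lay 2.15 to 3.54 above the mean of those controls, so the size of its difference is uncertain.

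In the authors' deposited table the ratio of Hmox1 was 0.659 for the genotype and 0.715 for the combined comparison. Beside it, macrophage markers averaged 8.20 to 8.25 in deficient arrays labelled Lrat-/-, 8.07 to 8.29 in sufficient arrays labelled Lrat-/- and 8.24 to 8.57 in wild-type arrays, where array 2 was the highest, and 9 of 10 were lower in the genotype comparison. Fibroblast markers averaged 8.88 to 9.07, 8.94 to 9.002 and 9.13 to 9.35 in the same order of groups, with 10 of 10 lower in the genotype comparison. Mesothelial markers averaged 6.84 to 7.22, 7.27 to 7.32 and 7.40 to 8.14, with 7 of 7 lower. Erythrocyte markers, of which 8 of 10 were measured, averaged 9.44 to 9.90, 9.42 to 9.58 and 9.09 to 9.51, with 8 of 8 higher. None of these markers was called, and their part in the Hmox1 difference was not tested. The mesothelial averages lay below the 95th percentile of the background controls in every array. The macrophage averages lay below it in every array but wild-type array 2.

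Nqo1 encodes a quinone reductase that uses NADH or NADPH. Its log2 signals were 9.33, 9.50 and 9.49 in deficient arrays labelled Lrat-/-, 9.58, 9.21 and 9.47 in sufficient arrays labelled Lrat-/-, and 9.50, 9.83 and 9.62 in wild-type arrays. Each group overlapped with the others, although wild-type array 2 was again the highest. The genotype difference was -0.23 (95% interval -0.50 to 0.03, limma adjusted p = 0.900), the combined difference -0.21 and the diet difference 0.02. Leaving out 1 array at a time gave -0.31 to -0.13 for the genotype, the weakest without sufficient array 2 labelled Lrat-/-, and -0.29 to -0.12 for the combined comparison, the weakest without wild-type array 2.

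Txnrd1, the cytosolic thioredoxin reductase and a selenoprotein, had log2 signals of 8.75, 8.91 and 8.67 in deficient arrays labelled Lrat-/-, 8.86, 8.82 and 8.64 in sufficient arrays labelled Lrat-/-, and 8.87, 8.92 and 8.61 in wild-type arrays. The array numbered 3 was the lowest in every group, as it was for Sod2, and averaged 0.22 below the other 2 for Txnrd1. The differences between groups were -0.03 for the genotype, 0.01 for the diet and -0.02 for the combined comparison.

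Gclm and Txnrd1 varied together over the 9 arrays, with a Pearson r of 0.84 and a Spearman rho of 0.93, and r was 0.95 without the 2 arrays farthest from the Gclm median. The array numbered 3 was the lowest in 3 of 3 groups for Txnrd1 and in 2 of 3 for Gclm, and all pairs share the same 9 arrays, so this is a description. Gpx1 and Gclc had r of 0.90 and rho of 0.82, but r was 0.51 without the 2 farthest arrays, and Gpx1 and Hmox1 had r of 0.77 with rho of 0.10. Both Gclm and Txnrd1 have a promoter window with TGACNNNGC, which 12.4% of 32851 windows hold, as 3 of 10 member windows do. Sod1 has the other, 56 bases before its start. Over the 9 arrays Sod1 ran opposite to both, with r of -0.61 for Gclm and -0.58 for Txnrd1. Without the 2 arrays farthest from the Sod1 median these were -0.18 and -0.45. A part of the motif in these patterns was not tested. The windows of Gclm and Txnrd1 are shown because both hold the match, which is in capitals as it reads on the strand printed. RefSeq (GRCm38.p6) places the Gclm window at chr3:122245307-122245606 and the second of 3 Txnrd1 windows at chr10:82858956-82859255, both on the plus strand.
Gclm: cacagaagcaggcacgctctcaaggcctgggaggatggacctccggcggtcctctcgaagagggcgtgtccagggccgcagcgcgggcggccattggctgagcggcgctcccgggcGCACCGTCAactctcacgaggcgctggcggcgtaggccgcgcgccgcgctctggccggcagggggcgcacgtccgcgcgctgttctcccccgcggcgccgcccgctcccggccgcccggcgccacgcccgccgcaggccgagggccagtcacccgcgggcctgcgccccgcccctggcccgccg
Txnrd1: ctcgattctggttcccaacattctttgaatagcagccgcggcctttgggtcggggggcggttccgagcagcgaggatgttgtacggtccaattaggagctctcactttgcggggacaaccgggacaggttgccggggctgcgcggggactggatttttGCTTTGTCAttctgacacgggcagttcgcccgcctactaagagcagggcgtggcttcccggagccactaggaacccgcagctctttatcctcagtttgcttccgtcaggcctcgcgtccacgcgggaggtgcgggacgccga
The match lies 134 bases before the start in Gclm and 92 bases before it in Txnrd1. Windows were found for 8 of 10 members; Gclc and Hmox1 are not among them. The direct repeat spaced by 5 was in no member window and in 0.00913% of all windows.

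**Figure D3:**
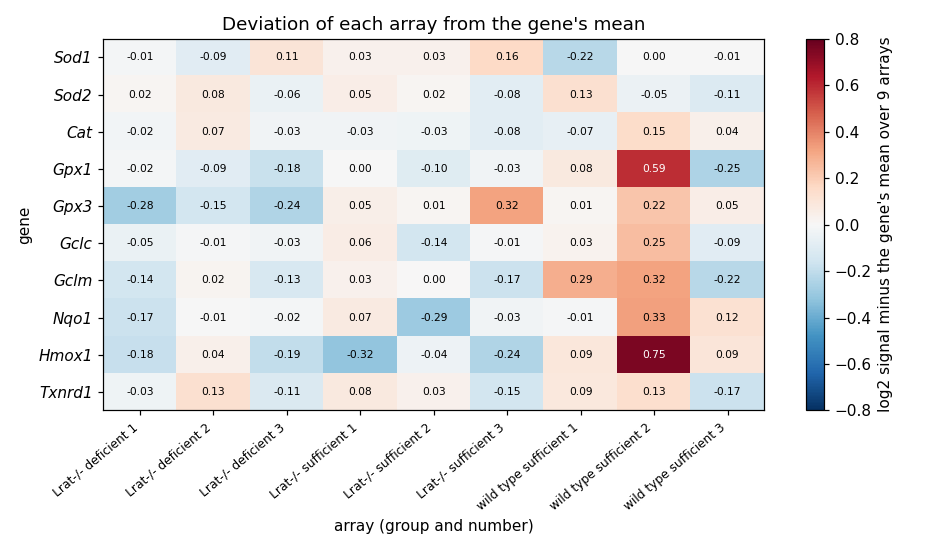
Deviation of each of the 10 genes, as log2 signal minus its own mean over all arrays, in each of the 9 arrays. Wild-type array 2 is above the mean for 8 of 10 genes, with a median deviation of 0.23.

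By the likeness of their pattern over 9 arrays, among 7678 genes with a mean log2 signal of at least 8, Gpx3 came closest to Ednra (r 0.93), Srf (r 0.93) and Git1 (r 0.90). Without the 2 arrays farthest from the Gpx3 median these were 0.83, 0.85 and 0.91. Hmox1 came closest to Scgb1c1 (r 0.98), F2r (r 0.98) and Ints4 (r 0.96), and without the 2 farthest arrays these were 0.90, 0.92 and 0.88. These are the highest of very many correlations on few arrays and describe these arrays only.

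Around the members, 10 lists of related genes held 154 genes, and limma called 0 of them in every comparison. With an unadjusted p under 0.05 there were 14 of 154 in the genotype comparison, or 9.09%, beside 5.72% of all genes. There were 2 in the diet comparison, or 1.30%, beside 1.31%, and 10 in the combined comparison, or 6.49%, beside 6.09%. The diet and combined counts thus lay near the share of all genes. The lowest adjusted p in limma was 0.507 for Txnip in the genotype comparison and 0.481 for Maob in the combined comparison. The glutathione transferases, which attach glutathione to foreign compounds, lay lower for 18 of 21 genes in the genotype comparison, with a median of -0.05 beside 0.00 over all genes.

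In the genotype comparison 15 of 24 genes of the peroxiredoxin and thioredoxin list lay higher, as did 8 of 16 for glutathione synthesis and transport, 6 of 12 for NRF2 and its regulators and 7 of 18 for other NRF2 targets. For NADPH supply it was 9 of 14, for heme and iron handling 6 of 15, for sources of reactive oxygen 5 of 15, for selenium supply 11 of 17 and for metallothioneins and copper delivery 5 of 10. In the diet comparison 17 of 24 genes of the peroxiredoxin and thioredoxin list lay higher, as did 11 of 16 for glutathione synthesis and transport, 14 of 21 glutathione transferases, 6 of 12 for NRF2 and its regulators and 9 of 18 for other NRF2 targets. It was 4 of 14 for NADPH supply, 6 of 15 for heme and iron handling, 10 of 15 for sources of reactive oxygen, 9 of 17 for selenium supply and 6 of 10 for metallothioneins and copper delivery. The list medians in the diet comparison ran between -0.03 for NADPH supply and 0.06 for sources of reactive oxygen, beside -0.01 over all genes. No direction was tested for a list as a whole.

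Among peroxide and thioredoxin genes, Txnip, an inhibitor of thioredoxin, had log2 signals of 12.53, 12.34 and 12.62 in deficient arrays labelled Lrat-/-, 12.85, 13.02 and 12.95 in sufficient arrays labelled Lrat-/-, and 12.74, 12.27 and 12.31 in wild-type arrays. The sufficient arrays labelled Lrat-/- lay above both other groups without overlap. In the genotype comparison 3.67% of all genes lay above without overlap, and in the diet comparison 3.26% lay below. Txnip was named for its low p in the F test on these arrays, so its separation is not independent of that choice. Its genotype difference was 0.50 and its diet difference -0.44. The glutaredoxins Glrx5 and Glrx had differences of 0.35 for the genotype and 0.48 for the combined comparison. In wild-type arrays Glrx5 was 10.40, 10.51 and 10.07 and Glrx was 9.85, 9.96 and 9.20. The sizes of both differences thus depend on wild-type array 3.

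Around NRF2, Sqstm1, an adaptor that competes for KEAP1, had a genotype difference of -0.31, Bach2, a repressor that binds related sites, -0.21, and the related factor Nfe2l1 0.17. Sqstm1 was 12.07, 12.49 and 12.20 in wild-type arrays, so the size of its difference depends on wild-type array 2. For glutathione supply and use, Anpep, a peptidase, had a genotype difference of -0.29, Gsto1 -0.34 and Gstm2 0.23. Slc7a11, the cystine carrier, was above the mean of the background controls in 0 of 9 arrays, so its differences are not read. For NADPH supply, Me1, malic enzyme, had a combined difference of -0.28, Aldh1l1 -0.26 and Aldh1l2 0.47. Aldh1l1, Aldh1l2 and Bach2 lay below the 95th percentile of the background controls in every array, and Anpep in every array but wild-type array 2. The sizes of their differences are thus uncertain.

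In heme and iron handling, which Hmox1 serves, Alas1, the first enzyme of heme synthesis, had a genotype difference of 0.32, Ftl1, ferritin light chain, -0.32, and Slc40a1, the iron exporter, -0.35. Ftl1 was 11.73, 12.28 and 11.72 in wild-type arrays, so the size of its difference depends on wild-type array 2. Slc40a1 had a diet difference of 0.34. Tfrc, the transferrin receptor, chosen after its values were seen, had log2 signals of 9.75, 9.75 and 9.08 in deficient arrays labelled Lrat-/-, 10.38, 10.33 and 9.82 in sufficient arrays labelled Lrat-/-, and 10.42, 8.42 and 7.997 in wild-type arrays. The wild-type group overlapped both others through wild-type array 1, and the Tfrc genotype difference of 1.23 (SE 0.53) was not called (limma adjusted p = 0.864). The deficient arrays lay below the sufficient arrays labelled Lrat-/- without overlap, as for 3.26% of all genes. The Tfrc diet difference of -0.65 (SE 0.53) was not called either. Maob, a mitochondrial amine oxidase that makes hydrogen peroxide, had a combined difference of 0.38, and Ncf4, a subunit of the phagocyte NADPH oxidase, a genotype difference of -0.21. The Ncf4 signal lay below the 95th percentile of the background controls in every array, so the size of its difference is uncertain. Among selenium genes, which serve Gpx1, Gpx3 and Txnrd1, Pstk had a genotype difference of 0.33 and Selenop, the plasma selenium carrier, -0.16.

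**Figure D4:**
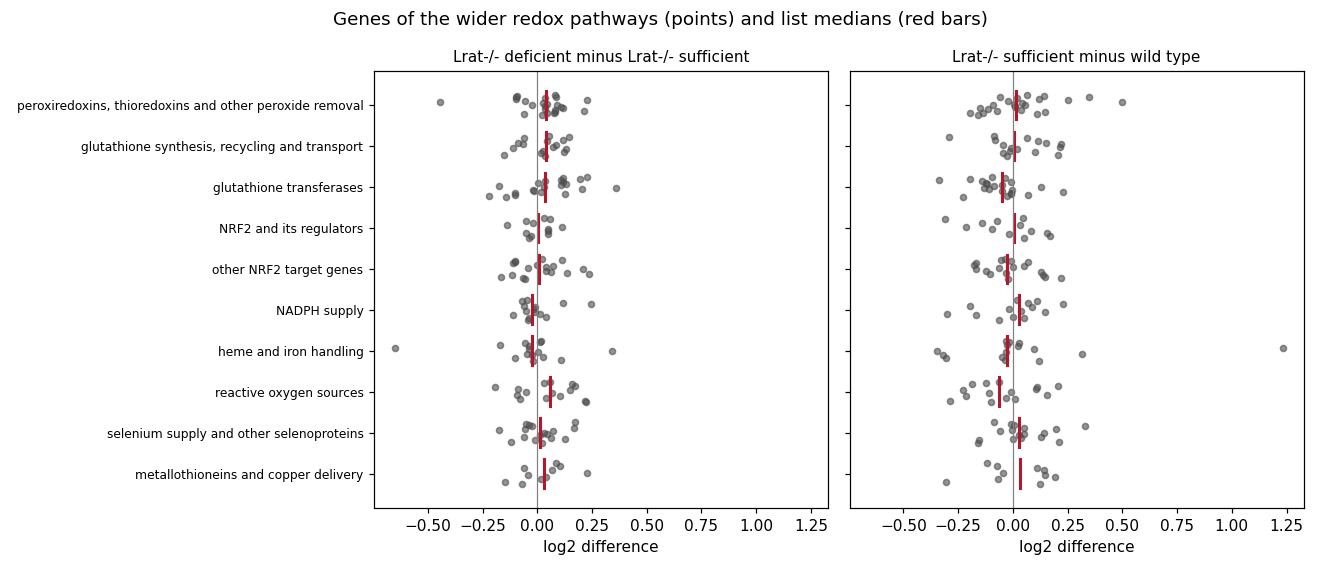
Log2 differences of the genes in each of the 10 lists of related genes, in the diet comparison (left) and the genotype comparison (right); grey points are genes and red bars are list medians. The list medians lie near 0, and the point farthest from 0 belongs to heme and iron handling, at 1.23 for Tfrc in the genotype comparison.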

How the data were processed

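Right ventricle RNA of 9 mouse samples was measured on Affymetrix WT arrays, 1 array for each sample. The deposited values are log2 signals on which the authors ran RMA, per the submitters' processing notes; these also name R 3.1.2 and, as the build, mm8. Another deposited table gives the annotation text of the probe sets, and 9 of its value columns match no sample label and were not used. The last deposited table gives, for each comparison, the authors' ratio and p-value, and a false discovery rate, with scan date as a factor per the file headers; these are given only where named as theirs.

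Gene symbols were updated through a RefSeq table of GRCm38.p6, used only for names: of 35556 probe sets, accessions matched 22111, symbols 1818 and synonyms 625, while 911 kept the file's name. The probe set with the highest mean was kept for each of 22061 genes.

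Group means were fitted to all 9 arrays with limma 3.58.1 in R 4.3.3, with 6 residual and 3.34 prior degrees of freedom and Benjamini-Hochberg adjustment over all genes, and the fit was tested on simulated data. Figures and summaries used Python 3.11.15, numpy 2.4.6, pandas 2.3.3 and matplotlib 3.10.9. The number of arrays limits the precision. Replicate numbers are taken from the sample titles; deviations from the group means correlated with r of 0.138 to 0.391 in all 9 same-number pairs, against -0.365 to 0.223 in the 18 others, so a fit with the number as a block was one of 20 other settings.

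The members, lists and other settings were chosen with earlier results of these data known. From each list the 3 genes with the lowest p in the F test were taken as named genes, with the 3 genes most like Gpx3 and Hmox1, and Lrat; not all of them are described.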

Additional observations from a re-analysis of the deposited data

How the results depend on the processing

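Under 20 other settings for each comparison and 19 for the F test, limma called 0 of the 10 members, leaving out 1 array at a time included. Of 600 member differences under these settings, 40 changed sign and 0 moved by more than the SD between replicates, pooled over the groups. Several of these settings, such as the replicate number as a block or another set of genes tested, cannot change a member's difference. Leaving out 1 of 3 arrays cannot move a difference by more than this SD. For all of these settings the 0 was fixed in advance. Against the SD that limma's fit gives, 6 member differences moved: Gpx1 and Hmox1 without wild-type array 2 and Gclm without wild-type array 3, each in the genotype and combined comparisons. For these genes that SD is smaller than the pooled one. Of 1677 differences of named pathway genes, 46 changed sign and 10 moved by more than the pooled SD, all 10 in the arrays numbered 1 and 2 only, where Aldh1l2 had a combined difference of 0.72, Bach2 a genotype difference of -0.13 and Slc40a1 a diet difference of 0.56. Gpx3 in the diet and combined comparisons and Hmox1 in the genotype and combined comparisons kept their sign under every setting tried. In those comparisons the groups did not overlap, so leaving out arrays could not change the sign. Other members kept theirs too, such as Sod1 and Gclm in every comparison. With the replicate number as a block, which changed no call of a member, the genotype adjusted p of Hmox1 was 0.212. The lowest adjusted p of any member was 0.185, for Gpx3 in the F test with array weights. Calls over all genes ranged between 2 and 27 in the genotype comparison, where the fit as reported called 8, between 0 and 2 in the diet comparison, where it called 0, and between 3 and 32 in the combined comparison, where it called 15. In the F test they ranged between 2 and 26, where it called 9. Hmox1 was above the 95th percentile of the background controls in 1 of 9 arrays, which limits the precision of its differences.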
